A study of Mus musculus with 6 samples.

Results

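The 10 genes described are secretory genes of the goblet cell, the mucus-producing cell of the intestinal epithelium: *Muc2*, *Tff3*, *Clca1*, *Fcgbp*, *Agr2*, *Spdef*, *Zg16*, *Spink4*, *Sytl2* and *Muc13*. They were chosen by symbol, by a rule that used no measured value, as genes of the secretory lineage nearest to the Paneth cell (PC), and they are 10 of the 48440 genes in the deposited tables. All 10 were found. RNA of adenoma polyps, from the small intestine by the study's methods, was sequenced in 3 libraries of ApcMin, WT mice (QC4, QC5 and QC6) and 3 libraries of ApcMin, PCdel mice (QC3, QC8 and QC10). Both groups carried the ApcMin allele, which makes mice form intestinal adenomas, and 1 Rosa26 iDTA allele, from which diphtheria toxin A is made only after Cre has removed a stop cassette. The PCdel mice also carried Defa4-Cre, a Cre inserted in the locus of the PC defensin gene *Defa4*, which directs the toxin to the PC lineage. WT therefore names mice without Cre. The strain was a C57BL/6 background, the *Defa4* insertion had been made in 129/svJ embryonic stem cells and then backcrossed, and the age was above 42 days in all groups. The labels do not say whether the libraries of a group are separate mice, so the p-values measure only the spread between these samples, which may be technical.

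Goblet cells and PCs both arise from secretory progenitors that have switched on *Atoh1*. Goblet cells store the gel-forming mucin MUC2 in large granules and release it to build the mucus that separates the epithelium from gut bacteria. Several small proteins packed or secreted with MUC2 shape that gel, and the ETS factor SPDEF drives goblet cell maturation. The comparison addressed here was whether the RNA of these genes differed in adenomas of mice in which the PC lineage was targeted.

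RefSeq promoter entries were present for 5 of the 10 genes (*Muc2*, *Fcgbp*, *Agr2*, *Spdef* and *Muc13*). Printed here are 4 of them, because, over the 6 libraries, the levels of *Muc2* and *Agr2* had a positive and that of *Muc13* a negative correlation with *Spdef*, none of which passed after adjustment (values are given with the relations to *Spdef*). Each line gives the 250 bases before a RefSeq start site of GRCm38.p6, 5′ to 3′ on the strand of the gene: chr7:141690090-141690339 (plus) for *Muc2*, chr12:35992675-35992924 (plus) for *Agr2*, chr17:27728952-27729201 (minus) for *Spdef* and chr16:33793787-33794036 (plus) for the upstream start site of *Muc13*. Capitals mark GGATG, a form of the GGAT core that SPDEF is known to prefer, and TGTTTNC, a core of forkhead sites, each read on both strands.

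Muc2: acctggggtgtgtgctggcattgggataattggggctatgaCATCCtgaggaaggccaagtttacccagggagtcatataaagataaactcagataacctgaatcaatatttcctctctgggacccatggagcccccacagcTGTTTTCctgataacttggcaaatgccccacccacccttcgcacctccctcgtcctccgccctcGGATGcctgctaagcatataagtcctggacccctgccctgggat
Agr2: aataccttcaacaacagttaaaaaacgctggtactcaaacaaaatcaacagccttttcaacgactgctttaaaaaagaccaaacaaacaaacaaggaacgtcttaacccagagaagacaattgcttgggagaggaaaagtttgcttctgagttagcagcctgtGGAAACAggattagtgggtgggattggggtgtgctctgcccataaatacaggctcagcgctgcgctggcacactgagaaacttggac
Spdef: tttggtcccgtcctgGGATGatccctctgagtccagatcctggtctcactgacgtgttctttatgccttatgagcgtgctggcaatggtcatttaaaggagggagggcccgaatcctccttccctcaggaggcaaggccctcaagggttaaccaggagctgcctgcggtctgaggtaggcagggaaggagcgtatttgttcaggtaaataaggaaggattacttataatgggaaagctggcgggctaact
Muc13: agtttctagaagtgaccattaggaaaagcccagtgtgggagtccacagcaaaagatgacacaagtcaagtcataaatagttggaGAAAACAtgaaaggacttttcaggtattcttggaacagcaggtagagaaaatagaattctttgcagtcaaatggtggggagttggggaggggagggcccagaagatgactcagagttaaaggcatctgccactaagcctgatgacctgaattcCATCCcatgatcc

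The *Muc2* sequence held GGATG at 209 and at 44 bases before the start site and TGTTTNC at 108 bases. *Spdef* held GGATG at 235 bases and no TGTTTNC, whereas *Agr2* held TGTTTNC at 87 bases and no GGATG. *Muc13* held both, GGATG at 13 bases and TGTTTNC at 166 bases. The TATA-like letters TATAAG, on either strand, stood at 28 bases in *Muc2* and at 29 bases in *Spdef*. No capital stretches overlap one another. The downstream start site of *Muc13*, whose sequence is not printed, held neither motif. *Fcgbp*, also not printed, held the form preferred by SPDEF at 107 bases and no forkhead core. Whether the motifs go with the relations to *Spdef* was not tested. Of 32851 mouse promoters of the same length, 37.3% held GGATG, 17.8% held TGTTTNC and 6.65% held TATAAG, so these letters are common, and a match describes the sequence and not a bound site. The motifs were chosen after the sequences were read, along with TATAAA (12.4% of promoters), CACCC (52.0%) and CAGCTG (13.0%).

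By level the 10 genes fell into abundant and scarce members. FPKM is the fragments of a gene divided by its length and by the library's size. It is per length, and levels and order here are those of FPKM, with *Muc2* a sum of 3 entries, each scaled to its own length. The order depends on the measure, since the mean read coverage of *Zg16* was below that of *Fcgbp* in every library (in QC10, 597.6 against 718.9). By mean FPKM over the 6 libraries, *Spink4* ranked 11, *Zg16* 17, *Tff3* 26 and *Agr2* 37 among the 14240 genes tested, that is, those with a mean FPKM of at least 1. *Muc13* (rank 167), *Muc2* (238), *Clca1* (261) and *Fcgbp* (350) formed a middle tier, while *Spdef* (3537) and *Sytl2* (6126) were low. In WT adenomas the order was *Spink4*, *Zg16*, *Tff3*, *Agr2*, *Muc13*, *Muc2*, *Clca1*, *Fcgbp*, *Spdef* and *Sytl2*. Neighbours in that order whose libraries overlapped were *Tff3* and *Agr2*, and each adjacent pair from *Muc13* to *Fcgbp*. In PCdel adenomas *Clca1* stood above *Muc2* and the order was otherwise the same, with overlap between *Spink4*, *Zg16* and *Tff3* and again in the middle tier from *Muc13* to *Fcgbp*. With its largest entry alone (327.7 in WT and 216.1 in PCdel), *Muc2* kept its place in WT and came below *Fcgbp* (232.2) in PCdel. The aligned sequence was similar in all libraries, 5.41 to 5.88 gigabases by the ratio of coverage to FPKM.

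**Figure D1:**
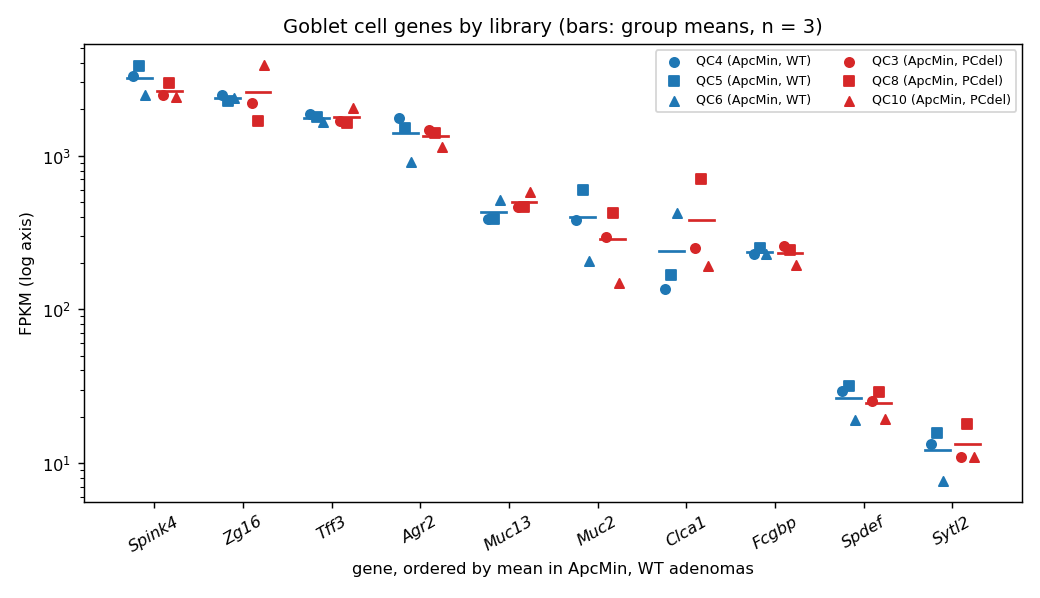
FPKM of the 10 goblet cell genes in each library on a log axis, with 3 ApcMin, WT libraries and 3 ApcMin, PCdel libraries as points and the group means as bars. The libraries of the groups overlap in all 10 genes, and *Spdef* and *Sytl2* lie below the other 8.

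*Muc2*, on chromosome 7 (GRCm38, 141690340 to 141754693, plus strand), encodes the main gel-forming mucin of the gut. Its FPKM was 382.4, 600.3 and 205.7 in WT libraries QC4, QC5 and QC6, and 296.4, 423.3 and 147.4 in PCdel libraries QC3, QC8 and QC10. QC5 was the highest, QC10 the lowest, and the spread within each group was wider than the gap between the groups. The PCdel mean of 289.0 ± 138.1 (SD, n = 3) was 73.0% of the WT mean of 396.1 ± 197.7. On the log2(FPKM + 1) scale used for every fold change here, the difference, PCdel minus WT, was -0.45 (SE 0.50, 95% interval -1.64 to 0.74; limma p = 0.399, exact two-sided permutation p = 0.5). That interval spans 0.321 to 1.67 times the WT level, so neither a large loss nor a moderate gain of *Muc2* RNA was resolved.

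The deposited tables split *Muc2* into 3 entries, separated in part by a gap of 40000 bases (141704612 to 141744611) in which GENCODE places 0 exons. Each entry is scaled by its own length, so their sum describes *Muc2* RNA but is not a level of the whole transcript. The downstream entry (141744612 to 141754693) took 67.2% to 84.7% of the sum. Its FPKM was 301.1, 508.6 and 173.4 in WT and 244.5, 284.4 and 119.5 in PCdel libraries, with a PCdel mean at 66.0% of WT. The PCdel mean was 112.2% of WT in the first entry (141690340 to 141698782) and 105.1% in the middle one (141699186 to 141704611), and without QC8 it was 57.7% and 58.4%. QC8 was the highest library in both of these, with 30.1 and 108.8, but ranked below QC4 and QC5 in the downstream entry. On the log2(FPKM + 1) scale the difference was below 0 in all 3 entries, at -0.043 in the first, -0.091 in the middle and -0.56 in the downstream entry. Without QC10 it was 0.39, 0.45 and -0.18.

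**Figure D2:**
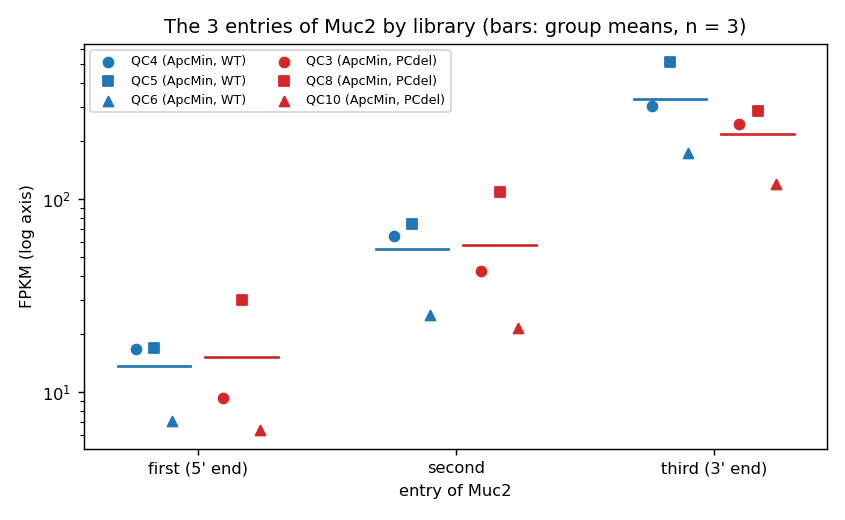
FPKM of the 3 separate *Muc2* entries in each of the 6 libraries, ordered along the gene, with points for libraries and bars for group means. QC8 is highest in the first and middle entries, and QC5 in the downstream entry.

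*Muc13* (chromosome 16, 33794037 to 33819934, plus strand) encodes a transmembrane mucin found on enterocytes as well as on goblet cells. Its FPKM was 387.6, 389.0 and 513.7 in WT and 462.5, 460.1 and 576.4 in PCdel libraries. QC6 and QC10 were the highest of their groups, and QC6 exceeded 2 of the PCdel libraries. The means were 430.1 ± 72.4 and 499.7 ± 66.5, a difference of 0.22 (SE 0.17, interval -0.18 to 0.62; limma p = 0.234, exact permutation p = 0.3). An antisense gene, *Gm15657*, overlaps *Muc13* and shares 5.98% of its 31-base words, and no strand setting is stated in the sources used here. Reads of the pair cannot be told apart without strand.

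The proteins that join MUC2 in the mucus gel showed 2 kinds of pattern, steady and variable. *Fcgbp* (chromosome 7, 28071236 to 28120862, plus strand), which encodes a large mucin-bound protein with von Willebrand domains, read 228.4, 249.5 and 229.5 in WT and 259.0, 242.2 and 195.5 in PCdel libraries, so the highest and the lowest library were both PCdel. Its difference was -0.031 (SE 0.14, interval 0.778 to 1.23 times WT; limma p = 0.832, exact permutation p = 0.9). *Fcgbp* shares 11.8% of its 31-base words with *9530053A07Rik*, so some of its reads are uncertain between the 2 genes. *Tff3* (chromosome 17, 31125306 to 31129646, minus strand), the intestinal trefoil peptide of mucosal repair, was the steadiest member, with a highest library 1.25 times the lowest. It read 1864, 1779 and 1658 in WT and 1674, 1640 and 2043 in PCdel libraries, and QC10 was highest. The *Tff3* difference was 0.0096 (SE 0.15, interval 0.782 to 1.30 times WT; limma p = 0.951, exact permutation p = 0.9).

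*Clca1* (chromosome 3, 145003817 to 145032776, minus strand), a secreted metalloprotease that processes MUC2 in mucus, varied most, 5.15-fold over the libraries. Its FPKM was 136.4, 166.8 and 421.1 in WT and 251.1, 702.8 and 192.0 in PCdel libraries. QC8 and QC6, a library of each group, stood above the other 4. The PCdel mean of 381.9 ± 279.4 was 158.2% of the WT mean of 241.4 ± 156.3, a difference of 0.60 (SE 0.59, interval -0.81 to 2.02; limma p = 0.344, exact permutation p = 0.5). Without QC8 the PCdel mean was 91.8% of WT and the difference 0.047. The ratio of *Clca1* to *Muc2* was 0.357, 0.278 and 2.05 in WT libraries and 0.847, 1.66 and 1.30 in PCdel libraries. QC6 had the highest ratio and the other 2 WT libraries the lowest, so the groups overlapped.

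*Zg16* (chromosome 7, 127050156 to 127087328, minus strand), a lectin-like protein that binds Gram-positive bacteria, behaved differently in each group. It read 2484, 2267 and 2374 in WT and 2208, 1687 and 3906 in PCdel libraries. Its coefficient of variation was 4.56% in WT and 44.6% in PCdel, where QC10 held the highest and QC8 the lowest value of all 6. The difference in *Zg16* was 0.041 (SE 0.31, interval -0.69 to 0.77; limma p = 0.899, exact permutation p = 1.0), and without QC10 it was -0.30. The difference in spread was not tested. Its annotated span overlaps *Gm44939* and *Gm22747* on the other strand, and the deposited coverage is averaged over that long span.

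*Spink4* (chromosome 4, 40920052 to 40931395, plus strand), a small secreted protein of the Kazal inhibitor family, was the most abundant member. Its FPKM was 3281, 3810 and 2484 in WT and 2487, 2994 and 2393 in PCdel libraries. QC5 and QC4 were above all PCdel libraries, but QC6 was not. The PCdel mean was 82.2% of WT, a difference of -0.27 (SE 0.21, interval -0.77 to 0.23; limma p = 0.244, exact permutation p = 0.3). The ratio of *Zg16* to *Spink4* ran from 0.563 in QC8 to 1.63 in QC10, both PCdel, with the WT libraries between 0.595 and 0.956.

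The genes of secretion itself did not differ by more than the libraries did. *Agr2* (chromosome 12, 35992907 to 36004087, plus strand), a disulfide isomerase of the endoplasmic reticulum needed for MUC2 folding, read 1762, 1521 and 912.2 in WT and 1473, 1414 and 1134 in PCdel libraries. QC6 was the lowest and QC10 the next. Its difference was -0.016 (SE 0.27, interval -0.66 to 0.63; limma p = 0.953, exact permutation p = 0.8). *Sytl2* (chromosome 7, 90302252 to 90410719, plus strand) encodes a RAB27 effector that tethers granules at the membrane. It read 13.4, 15.6 and 7.66 in WT and 10.9, 17.9 and 10.9 in PCdel libraries, with QC8 highest and QC6 lowest. The *Sytl2* difference was 0.13 (SE 0.29, interval -0.57 to 0.82; limma p = 0.676, exact permutation p = 0.9).

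*Spdef* (chromosome 17, 27714352 to 27728951, minus strand), the goblet cell factor, read 29.3, 31.5 and 19.1 in WT and 25.5, 29.0 and 19.4 in PCdel libraries. QC6 and QC10, a library of each group, were the lowest and close to each other. The means were 26.6 ± 6.62 and 24.6 ± 4.84, a difference of -0.096 (SE 0.23, interval -0.64 to 0.44; limma p = 0.686, exact permutation p = 0.6).

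Counted together, 0 of the 10 genes passed limma's adjusted p of 0.05, where 2 of 14240 genes did (0.0140%), and all 10 adjusted p-values were 0.99997. At an unadjusted p of 0.05 the members also counted 0, beside 481 genes (3.38%). In 0 of the 10 genes were the libraries of the groups free of overlap, beside 1073 genes (7.54%). The differences were above 0 in 5 genes and below 0 in 5, beside 8983 above and 5257 below over all genes tested. Their median was -0.0034 and the median of their sizes 0.11 on the log2 scale, beside 0.042 and 0.093 over all genes tested. The median SE was 0.25 against 0.14. This SE reflects the whole spread between libraries, in which differences between samples and error of measurement are not separated. The log2(FPKM + 1) scale also shrinks that spread in low genes, which are among all genes tested. In bulk tissue, a change in the number of goblet cells and a change in RNA per cell cannot be told apart.

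**Figure D3:**
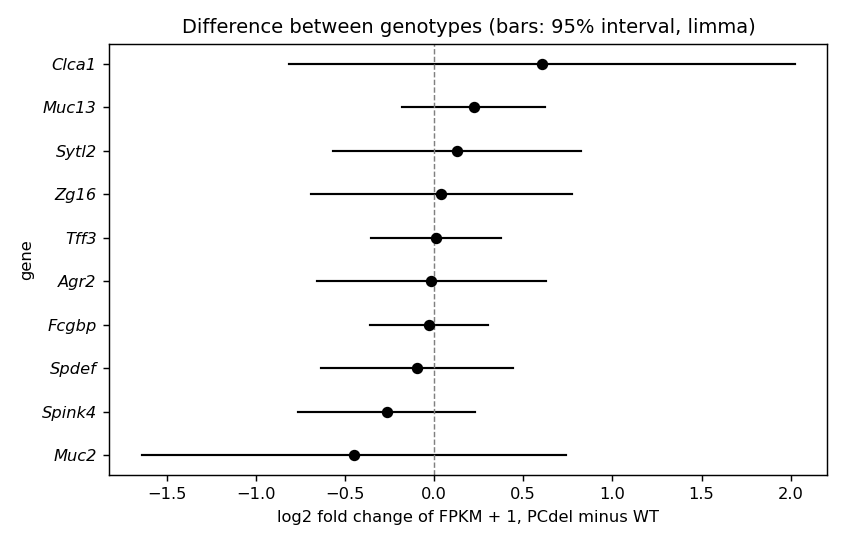
Difference of each goblet cell gene on the log2(FPKM + 1) scale, PCdel minus WT, with 95% limma intervals. All 10 intervals cross 0, and those of *Fcgbp* and *Tff3* are the narrowest.

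The summed FPKM of the 10 genes was 10568, 10829 and 8825 in WT and 9148, 9610 and 10617 in PCdel libraries. QC6 had the lowest sum and QC5 the highest, both WT. The PCdel mean of 9792 ± 751 was 97.2% of the WT mean of 10074 ± 1090, and the 10 genes took 1.46% to 1.86% of all FPKM in a library. Divided by the FPKM of the epithelial gene *Epcam*, the sum was 11.1, 11.3 and 12.01 in WT and 11.4, 11.5 and 10.6 in PCdel libraries. On this scale too the groups overlapped, and QC6 moved from the lowest to the highest library. The sum is set mostly by *Spink4*, *Zg16*, *Tff3* and *Agr2*.

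Within the spread, some members moved together. The relation of *Spdef* to each of the other 9 genes was computed over the 6 libraries in log2(FPKM + 1), a set of 9 relations chosen after the values were seen. *Spdef* followed *Muc2* (Pearson r = 0.95, exact permutation p = 0.0111, adjusted 0.05; Spearman rho = 0.89, exact permutation p = 0.0333, adjusted 0.075). It followed *Spink4* (r = 0.86, exact permutation p = 0.00833, adjusted 0.05; rho = 0.94, exact permutation p = 0.0167, adjusted 0.075). It ran opposite to *Muc13* (r = -0.90, exact permutation p = 0.0194, adjusted 0.0583; rho = -0.89, exact permutation p = 0.0333, adjusted 0.075). None of the 9 adjusted values was below 0.05. Without QC6 and QC10, the libraries farthest from the median of *Spdef*, r was 0.94 for *Muc2*, 0.98 for *Spink4* and -0.74 for *Muc13*.

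The relation with *Agr2* rested on those libraries. Its r of 0.89 (exact permutation p = 0.05, adjusted 0.09; rho = 0.89, exact permutation p = 0.0333, adjusted 0.075) became 0.24 without them. *Sytl2* gave r = 0.85 (exact permutation p = 0.0333, adjusted 0.075; rho = 0.77, exact permutation p = 0.103, adjusted 0.185), and 0.73 without them. The other 4 genes had weaker relations, with r of 0.64 for *Fcgbp*, -0.61 for *Zg16*, -0.23 for *Tff3* and -0.17 for *Clca1* (exact permutation p from 0.239 to 0.767; adjusted 0.35 or higher). A group has too few libraries for a value within it, so shared tissue makeup and a shared level per cell cannot be told apart. The summed enterocyte markers were highest in QC6, at 26243 FPKM beside 9901 to 15872 in the other 5, and their part in these relations was not tested.

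**Figure D4:**
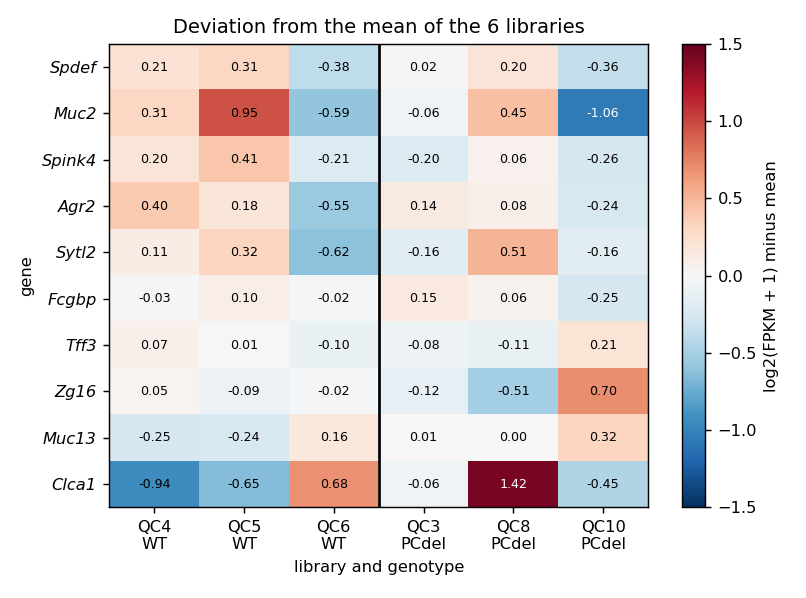
Deviation of each goblet cell gene in each library from the mean of its 6 libraries, in log2(FPKM + 1), shown as a colour map with the values written in. *Muc2* runs from 0.95 in QC5 to -1.06 in QC10, and *Clca1* from 1.42 in QC8 to -0.94 in QC4.

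By Pearson r over the 6 libraries, the 5 genes most like *Muc2* among the other 14239 tested were *Hnrnph3* (0.992), *Elk4* (0.990), *Wnk4* (0.988), *Jag1* (0.983) and *Rhobtb2* (0.982). An r above 0.9 was reached by 177 genes (1.24%). *Spdef* came at rank 32 (0.954) and *Spink4* at rank 168 (0.902), while *Muc13* was near the bottom at 14171 (-0.909). With 6 libraries these values describe a likeness of pattern only, and all points share the differences between the libraries in tissue makeup.

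Genes with related roles were read from 6 further lists, of other secreted mucins, transmembrane mucins, fate factors, glycan enzymes, folding and release genes, and other goblet cell markers. Of 75 genes listed, 72 were matched by symbol and 63 were tested. At the adjusted and at the unadjusted threshold 0 of the 63 were called by limma, and the groups did not overlap in 2 (3.17%, below the 7.54% of all genes). Those 2 were *B3gnt7*, a glycan-extending enzyme (11.9 ± 0.42 in WT, 14.7 ± 2.62 in PCdel), and *Sytl1*, a relative of *Sytl2* (3.03 ± 0.69 and 3.59 ± 0.14). Neither passed the unadjusted threshold, and their adjusted p by limma was 0.99997. The median difference of the 63 was 0.053, next to 0.042 for all genes. Leaving out a single library turned the direction in 44 of the 63.

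The other mucins varied widely. *Tff2*, a trefoil peptide of gastric type and Brunner glands, read 282.3, 118.0 and 39.1 in WT and 292.4, 190.0 and 8.56 in PCdel libraries, and *Tff1* had a difference of -1.19 (SE 0.87). *Muc6*, the gel-forming mucin of such glands, read 20.9, 21.8 and 11.8 in WT and 30.6, 29.3 and 7.22 in PCdel libraries. All 3 were lowest in QC10, with QC6 next, and without QC10 the difference of *Tff2* went from -0.45 to 1.10. The 4 further transmembrane mucins tested were below 0 (median -0.68), unlike *Muc13* at 0.22, and with *Muc13* the median was -0.55. The median of the 4 was -0.14 without QC10 and -0.10 without QC5. *Muc3*, a brush border mucin, read 254.6, 282.8 and 402.3 in WT and 233.7, 255.6 and 73.4 in PCdel libraries, a difference of -0.90 (SE 0.48; limma adjusted p = 0.99997), with QC10 the lowest library, and -0.33 without it. *Muc3a* (-0.55) was 0.043 without QC10. *Muc1* (-0.80) read 7.52 in QC5 and 0.23 to 0.53 in the other 5 libraries, and was 0.13 without QC5. *Muc4* (-0.12) was 0.15 without QC5 and 0.12 without QC10.

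Of 11 fate factors, 8 were above 0 and 3 below, with a median of 0.11. Most genes tested were above 0 (8983 of 14240), so a majority above 0 in this or a following list is not particular to it. *Atoh1*, which commits cells to the secretory lineage, lay between 7.21 and 9.93 in every library. *Klf4*, a factor of goblet cell differentiation, had the highest level and the largest difference (42.6 ± 9.13 in WT and 53.9 ± 14.3 in PCdel; 0.32, SE 0.24), and *Creb3l1*, a transcription factor held in the endoplasmic reticulum membrane, the most negative (28.2 ± 9.88 and 24.8 ± 4.90; -0.13, SE 0.29).

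Of 16 mucin O-glycan enzymes, 10 were above 0 and 6 below, with a median of 0.053. *B4galnt2*, which adds a terminal sugar, was the most abundant (123.5 ± 10.1 in WT and 135.8 ± 11.1 in PCdel). *B3gnt3* had the next level (-0.026), *Fut2*, the fucosyltransferase of secretor type, the largest difference (0.43, SE 0.31), and *Gcnt3*, a branching enzyme, the lowest (-0.11, SE 0.29). Of 14 folding and granule release genes, 10 were above 0 and 4 below (median 0.042). They ranged from the granule GTPase *Rab3d* (-0.38, SE 0.34) to *Sytl1* (0.20, SE 0.15), and the abundant *Vamp8* (-0.052) and *Qsox1* (0.088) lay between. None of the genes in these 3 lists passed either threshold.

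Of 15 other goblet cell markers, 10 were above 0 and 5 below (median 0.16). *Lypd8*, a secreted protein that keeps flagellated bacteria from the epithelium, was the most abundant, at 2904, 2643 and 1897 in WT and 2491, 2442 and 3586 in PCdel libraries. *Guca2b*, a guanylin peptide, reached 1712 in QC6 and 412.0 to 617.5 in the other 5, a difference of -0.37 (SE 0.52). QC6 also had the highest summed enterocyte markers, at 26243 FPKM. Whether the genes of this list, *Lypd8* and *Guca2b* among them, are particular to goblet cells was not tested. *Retnlb*, an antibacterial protein of goblet cells, had the largest difference (0.47, SE 1.003), with 13.2, 49.3 and 39.2 in WT and 46.0, 161.2 and 9.01 in PCdel libraries. QC6 for *Guca2b* and QC8 for *Retnlb* stood far above the other 5 libraries. Without them the differences were 0.27 and -0.50.

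**Figure D5:**
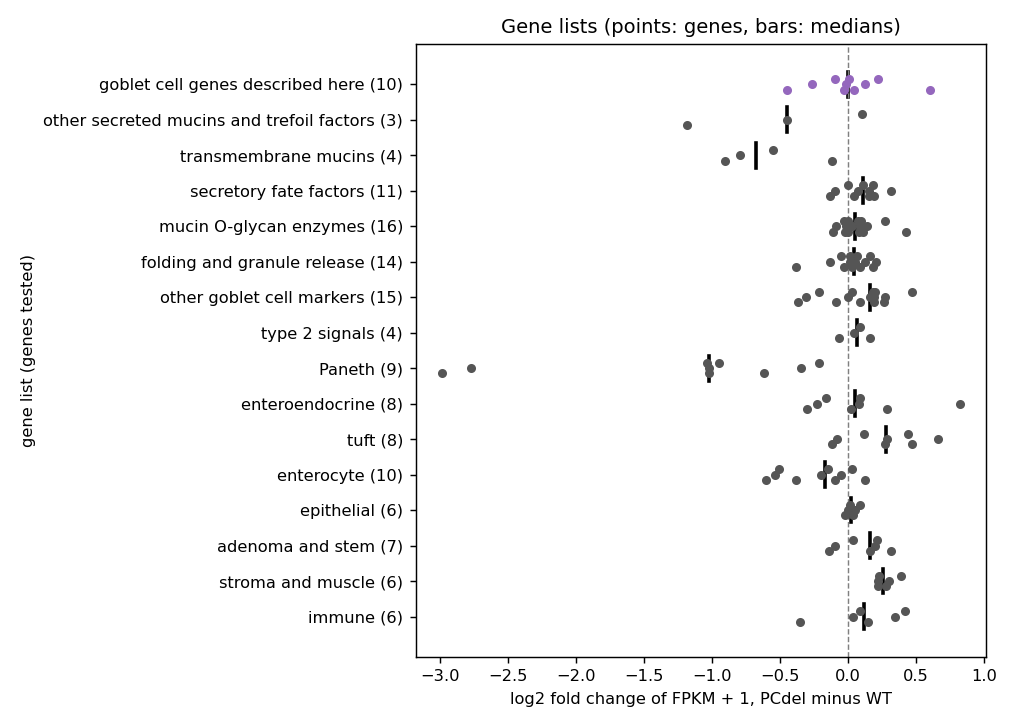
Differences of all tested genes of the goblet cell lists and of marker lists of other cell types, PCdel minus WT on the log2(FPKM + 1) scale, a point per gene and a line at each median. The 10 goblet cell genes have a median of -0.0034 and the 9 PC genes of -1.02.

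The PC markers were read in the same libraries. The list holds *Defa21*, *Defa22* and *Lyz1*, which the paper names as low in PCdel adenomas from the same sequencing. It is therefore no independent check of the labels. All 9 were below 0 (median -1.02). An unadjusted limma p under 0.05 was found in 6, beside 3.38% of all genes tested, and 0 passed after adjustment. The libraries of the groups did not overlap in 3, beside 7.54% of all genes tested. The fall was not uniform, since the mean of *Ang4* was 547.4 in WT and 553.6 in PCdel. Its difference of -0.35 was 0.81 without QC10 and 0.38 without QC6. *Lyz1*, the lysozyme of PCs, read 1672, 2229 and 2281 in WT and 950.3, 1148 and 1082 in PCdel libraries, and *Defa21*, a defensin, had a difference of -2.98 (SE 0.38; limma adjusted p = 0.309). The summed PC markers still reached 3931 to 6971 FPKM in PCdel adenomas, against 6014 to 13168 in WT. Which cells made the RNA of these markers, *Ang4* among them, was not tested. PC and goblet cell genes are compared with the same WT libraries, and the difference between the lists was not tested.

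Markers of other cells give the makeup beside which the goblet cell values stand. The 6 epithelial genes had a median difference of 0.024 and a lowest sum in QC6 (4260 FPKM, beside 4941 to 6154). The 8 tuft cell genes had a median of 0.28, the 8 enteroendocrine genes 0.053, the 10 enterocyte genes -0.17, the 7 adenoma and stem cell genes 0.16, the 6 stromal genes 0.25 and the 6 immune genes 0.12, and 0 of these passed the adjusted threshold. The sums of the stromal list overlapped between the groups (227.8 to 309.9 in WT and 245.4 to 374.2 in PCdel), whereas those of the immune list did not (189.7 to 226.8 and 172.1 to 180.1). *Lyz2*, the myeloid lysozyme, took most of the immune sum (182.7 ± 19.1 and 142.6 ± 3.89). It passed the unadjusted threshold alone among the 6, and its adjusted p by limma was 0.99997. Of the immune genes tested, 5 were above 0 and only *Lyz2* was below (-0.35), so the lower immune sum in PCdel describes *Lyz2* and not the list. The colon marker *Car1* was listed at 0 in all 6 libraries, and the Wnt targets *Lgr5* and *Axin2* were detected in each, at 8.72 to 16.6 and 16.03 to 28.1. The part of any of these in the goblet cell values was not tested.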

How the data were processed

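RNA of adenoma polyps was sequenced by the authors (TruSeq RNA kit, HiSeq2500, CLC Genomics Workbench and a normalization in MatLab by the methods, with no settings used here). For each library the authors deposited, per gene entry, the FPKM, scaled for length and library size, the TPM, scaled to a fixed sum, and the mean read coverage. The program behind these values is not given in the sources used here. Gene positions match GRCm38 (87.69% of 48038 IDs have the same start and end in GENCODE M21). Entries with the same gene ID were summed for FPKM and TPM.

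Genes whose FPKM averaged at least 1 over the 6 libraries (14240) entered limma 3.58.1 in R 4.3.3 (trended eBayes, no covariate) on log2(FPKM + 1), which understates changes of low genes, with p-values adjusted by Benjamini-Hochberg at 0.05. The mean FPKM of each member was also compared in a two-sided exact permutation test with 20 arrangements (scipy 1.17.1), whose smallest p is 0.1, so that it cannot pass 0.05. Coverage gave the depth, 5.41 to 5.88 gigabases, and an added alternative. Read numbers were not derived, so no counting intervals are given.

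The fit was tested on simulated data. The genes named are the 10 members, of each further list the 2 most abundant genes, the largest difference in each direction and any with an unadjusted p under 0.05, and the 5 genes most like *Muc2*, with few markers of other cell types and further examples chosen after their values were seen. The members, lists and tests were chosen with earlier results of these data known. Alternatives were another pseudocount, filters, TPM, quantile normalization, centring on all or on epithelial genes, untrended variance, array quality weights and each library left out. Leaving out libraries for the *Muc2* entries and the further lists was added after the data were seen. RNA of other tissues and the microbiota data were not analysed here.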

Additional observations from a re-analysis of the deposited data

How the results depend on the processing

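Over 161 alternative values for the 10 genes, 0 passed the adjusted threshold (lowest adjusted p = 0.521), and the direction stayed for *Muc2* (-0.85 to -0.029), *Clca1* (0.047 to 1.10), *Spink4* (-0.44 to -0.13) and *Muc13* (0.11 to 0.35). It turned in 23 values of the other 6 genes. The *Tff3* difference became -0.040 with centring on the median, -0.017 with epithelial centring and -0.056 with array quality weights. *Fcgbp* became 0.021 with quantile normalization, 0.029 with TPM and 0.035 with coverage per gigabase, an alternative added after the data were seen. *Agr2* became 0.13 with quantile normalization and 0.043 with TPM. With array quality weights *Zg16* became -0.057 and *Sytl2* -0.13, and with median centring *Zg16* became -0.0084. With each library left out, the ranges were -0.091 to 0.067 for *Tff3*, -0.11 to 0.088 for *Fcgbp*, -0.30 to 0.18 for *Agr2*, -0.31 to 0.060 for *Spdef*, -0.30 to 0.31 for *Zg16* and -0.15 to 0.32 for *Sytl2*. The turns came without QC10 (*Tff3*, *Fcgbp*, *Agr2*, *Spdef*, *Zg16*), QC5 (*Fcgbp*, *Agr2*, *Spdef*), QC4 (*Agr2*), QC6 (*Tff3*, *Sytl2*) and QC8 (*Sytl2*). Members with an unadjusted p under 0.05 numbered 2 (*Spink4*, *Muc13*) with array quality weights, and 0 to 2 with each library left out, the 2 being the same genes without QC6. Their unadjusted limma p was then 0.0251 and 0.0387 with weights, and 0.0350 and 0.0422 without QC6. Among all genes, those passing the adjusted threshold numbered 1 with no filter and with either centring, and 1 to 5 with each library left out. Those with an unadjusted p under 0.05 numbered 976 with no filter, 260 with a minimum mean FPKM of 5, 255 with epithelial centring, 1270 with array quality weights and 353 to 824 with each library left out, 824 being without QC6. The cause was not tested. The summed level in PCdel stayed within 91.5% and 101.0% of WT with each library left out. *Muc2* from its largest entry alone was added after the data were seen. No paired analysis was run, because the labels give no pairing of libraries between the groups.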

Other observations

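The following values were singled out after they were seen and are given as a description. QC8 was the highest library for *Clca1*, *Retnlb* and *Ang4*, an angiogenin of the PC granule. *Ang4* read 152.9, 381.0 and 1108 in WT and 425.4, 1173 and 62.3 in PCdel libraries, so that QC6 and QC8 stood above the other 4, as they did for *Clca1*. *Muc2* did not share this order, since QC5 was its highest library and QC6 and QC10 its lowest. Of the type 2 signals, *Il13*, *Il4* and *Il25* were below the level tested, and the 4 genes tested differed, PCdel minus WT on the log2 scale, by 0.16 (*Il4ra*), 0.089 (*Il13ra1*), 0.045 (*Stat6*) and -0.064 (*Il33*).

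QC10 differed from the other PCdel libraries in several genes of the members and of the further lists, not all of them mucus genes. *Zg16*, *Lypd8* and *Guca2a* (417.2, 490.0 and 222.7 in WT, and 153.4, 361.2 and 678.1 in PCdel) were highest in QC10 among all 6 libraries, whereas *Muc2*, *Muc3*, *Muc6*, *Tff1*, *Tff2* and *Retnlb* were lowest there.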
